A study of Rattus norvegicus with 26 samples.

Results

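Ephx2, which encodes soluble epoxide hydrolase, was followed in the hearts of a hypertensive and a normotensive rat strain together with 9 other genes whose products handle epoxides or the oxygenation products of arachidonic acid. The 10 genes were given as a list: the epoxide hydrolases Ephx2 and Ephx1, the prostanoid enzymes Ptgs1, Ptgs2, Ptgis and Ptges, and the lipoxygenase and leukotriene genes Alox5, Alox5ap, Alox15 and Ltc4s. Each was found on the array by its current gene symbol or a synonym, and 9 of the 10 had a probe, always exactly 1. Ptgs1, the constitutive cyclooxygenase, had no probe under any of its names in the annotation used and was not analysed here. For comparison, the named probes of the array cover 13337 genes. Ephx2 was chosen by the study as a candidate from these same arrays, selected on its difference between the strains at week 14 and by its change between the stages in each strain. Its values are therefore given below as a description, with no test, and the tests concern the other 8 genes.

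Heart RNA was measured on single-colour Illumina RatRef-12 BeadChips, 1 array per sample, with 22523 probes and 26 arrays. SHRSP, the stroke-prone spontaneously hypertensive rat, is an inbred model in which hypertension and a thickened left ventricle appear with age, and F344 is a laboratory strain with normal blood pressure. The groups were 7 male SHRSP and 8 male F344 at week 14 after birth, and 4 male SHRSP and 7 male F344 at day 20 of fetal development (E20). The labels name no transgene or drug for any group, and which fetuses shared a litter is not given in the sources used here. By the study's methods the week 14 samples were the free wall of the left ventricle extracted with TRIzol, and the E20 samples were both ventricles without atria extracted with a column kit. The sample labels instead name TRIzol throughout and the heart as a whole at E20. The methods also state that week 14 rats were killed under ketamine and xylazine anaesthesia. Fetuses were decapitated, and the mothers were given isoflurane. Stage, tissue, kit and manner of killing therefore cannot be told apart. In bulk tissue, fewer cells of a type and less RNA per cell cannot be told apart either.

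Values are log2 intensities that the authors quantile-normalized over the arrays. They run from 6.64 to 15.53 with a median of 7.16 over all probes and arrays, and values close to that median lie near the background of the array, where a difference between groups understates the difference in RNA. A step of 1 on this scale is a doubling of intensity. Differences were computed as SHRSP minus F344, and as week 14 minus E20. The second is the reverse of the direction in which the study lists development, so a positive value here means a higher level at week 14. Cardiomyocyte markers were present in every group, with an intensity on the unlogged scale, summed over 7 genes, of 142674 to 165511 in SHRSP and 138556 to 151722 in F344 at week 14, and of 105830 to 127673 in SHRSP and 105033 to 144411 in F344 at E20. The weights that limma estimated for the arrays ran from 0.515 to 1.779, and the lowest belonged to F344 week 14 replicate 3, which stood apart from the rest of its group. Results that changed without this array are given both ways.

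Arachidonic acid is released from membranes by phospholipases A2 and then oxygenated along several routes. Cytochrome P450 epoxygenases turn it into epoxyeicosatrienoic acids, lipid epoxides that relax vessels, and soluble epoxide hydrolase opens these epoxides to the less active diols. Cyclooxygenases make prostaglandin H, which prostacyclin synthase and prostaglandin E synthase convert further, while lipoxygenases make hydroperoxides and, with the 5-lipoxygenase activating protein, the leukotrienes. In heart these mediators come from cardiomyocytes and endothelium and also from resident and recruited leukocytes.

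Promoter sequences of GRCr8 from RefSeq, each covering 250 bases before and 50 bases after a start site, were held for 6 of the 10 genes (Ephx1, Ptgs1, Ptgs2, Ptges, Alox5 and Ltc4s). Those of Ephx1, Alox5 and Ptgs2 are printed because these were the members with a promoter in the table that were higher at week 14 than at E20 in F344. They run 5′ to 3′ on the strand of the gene. Capitals mark matches, on either strand and counted also where they overlap, to the TATA box TATAAA, the box CCAAT, the GC box GGGCGG or the nuclear receptor half-site AGGTCA.
Ephx1 (chr13:95275803-95276102, minus strand): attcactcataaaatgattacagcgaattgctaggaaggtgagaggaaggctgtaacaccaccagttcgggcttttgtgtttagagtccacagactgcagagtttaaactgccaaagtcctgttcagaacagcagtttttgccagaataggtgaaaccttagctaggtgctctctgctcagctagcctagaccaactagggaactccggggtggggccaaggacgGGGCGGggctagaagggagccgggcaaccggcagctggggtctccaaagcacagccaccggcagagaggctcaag
Alox5 (chr4:151251077-151251376, minus strand): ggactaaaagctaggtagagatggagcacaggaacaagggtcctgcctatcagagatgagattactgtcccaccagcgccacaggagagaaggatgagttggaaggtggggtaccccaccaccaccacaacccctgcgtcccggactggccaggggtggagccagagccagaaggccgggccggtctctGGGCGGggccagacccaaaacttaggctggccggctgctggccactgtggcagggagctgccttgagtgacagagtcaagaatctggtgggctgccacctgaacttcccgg
Ptgs2 (chr13:64713813-64714112, plus strand): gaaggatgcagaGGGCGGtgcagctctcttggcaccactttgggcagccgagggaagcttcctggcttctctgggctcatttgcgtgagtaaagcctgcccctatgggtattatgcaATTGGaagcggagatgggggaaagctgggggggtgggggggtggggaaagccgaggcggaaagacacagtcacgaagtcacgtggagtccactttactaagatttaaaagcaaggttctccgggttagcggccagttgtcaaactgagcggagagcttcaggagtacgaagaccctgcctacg
All 3 windows held 1 GGGCGG, with its first base at -25 from the start site in Ephx1, at -61 in Alox5 and at -238 in Ptgs2. The Ptgs2 window also held CCAAT on the opposite strand at -133. Neither the TATA box nor the half-site occurred in these 3 windows as spelled. Of 33469 rat promoters of the same length, 33.1% held the GC box, 37.5% the CCAAT box, 16.2% the half-site and 14.2% the TATA box, so the GC box is a common element. A second Ephx1 start site has its own window (chr13:95263068-95263367), with 2 matches to the CCAAT box and 2 to the half-site. The matches are a description of letters, and nothing about binding was measured.

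Among the epoxide hydrolases, Ephx2 separated all 4 groups, whereas Ephx1 differed by stage but not detectably by strain. The Ephx2 probe (chr15:44465447-44503157 in GRCr8, gene ID 65030) read 8.71, 8.93 and 9.20 (lowest, median and highest) in SHRSP at week 14, against 10.85, 11.37 and 11.65 in F344 at week 14. The 4 SHRSP arrays at E20 read 7.30, 7.36, 7.34 and 7.35, against 10.06, 10.22 and 10.47 in F344 at E20. No 2 of these 4 groups overlapped. The levels ordered the groups as F344 week 14, F344 E20, SHRSP week 14 and SHRSP E20, with 1.05, 1.28 and 1.64 log2 between neighbouring means, so fetal F344 hearts read higher than adult SHRSP hearts.

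The strain difference of Ephx2 was -2.33 at week 14 (standard error, SE, 0.09), which is 5.04-fold lower in SHRSP, and -2.92 at E20 (SE 0.11), which is 7.59-fold lower in SHRSP. The difference of week 14 from E20 was 1.64 in SHRSP (SE 0.11, 3.12-fold) and 1.05 in F344 (SE 0.09, 2.07-fold). The study placed its limit at 1.5 log2, so the SHRSP value lies just past that limit and the F344 value short of it, and the 2 values differ by 0.59. The standard deviation (SD) was 0.18 in SHRSP and 0.26 in F344 at week 14, and 0.02 in SHRSP and 0.16 in F344 at E20, and the tight SHRSP values at E20 lay close to the array median of 7.16. Near the background, the differences that involve this group understate the difference in RNA. These are the values on which the gene was chosen, and no support is drawn from them.

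**Figure D1:**
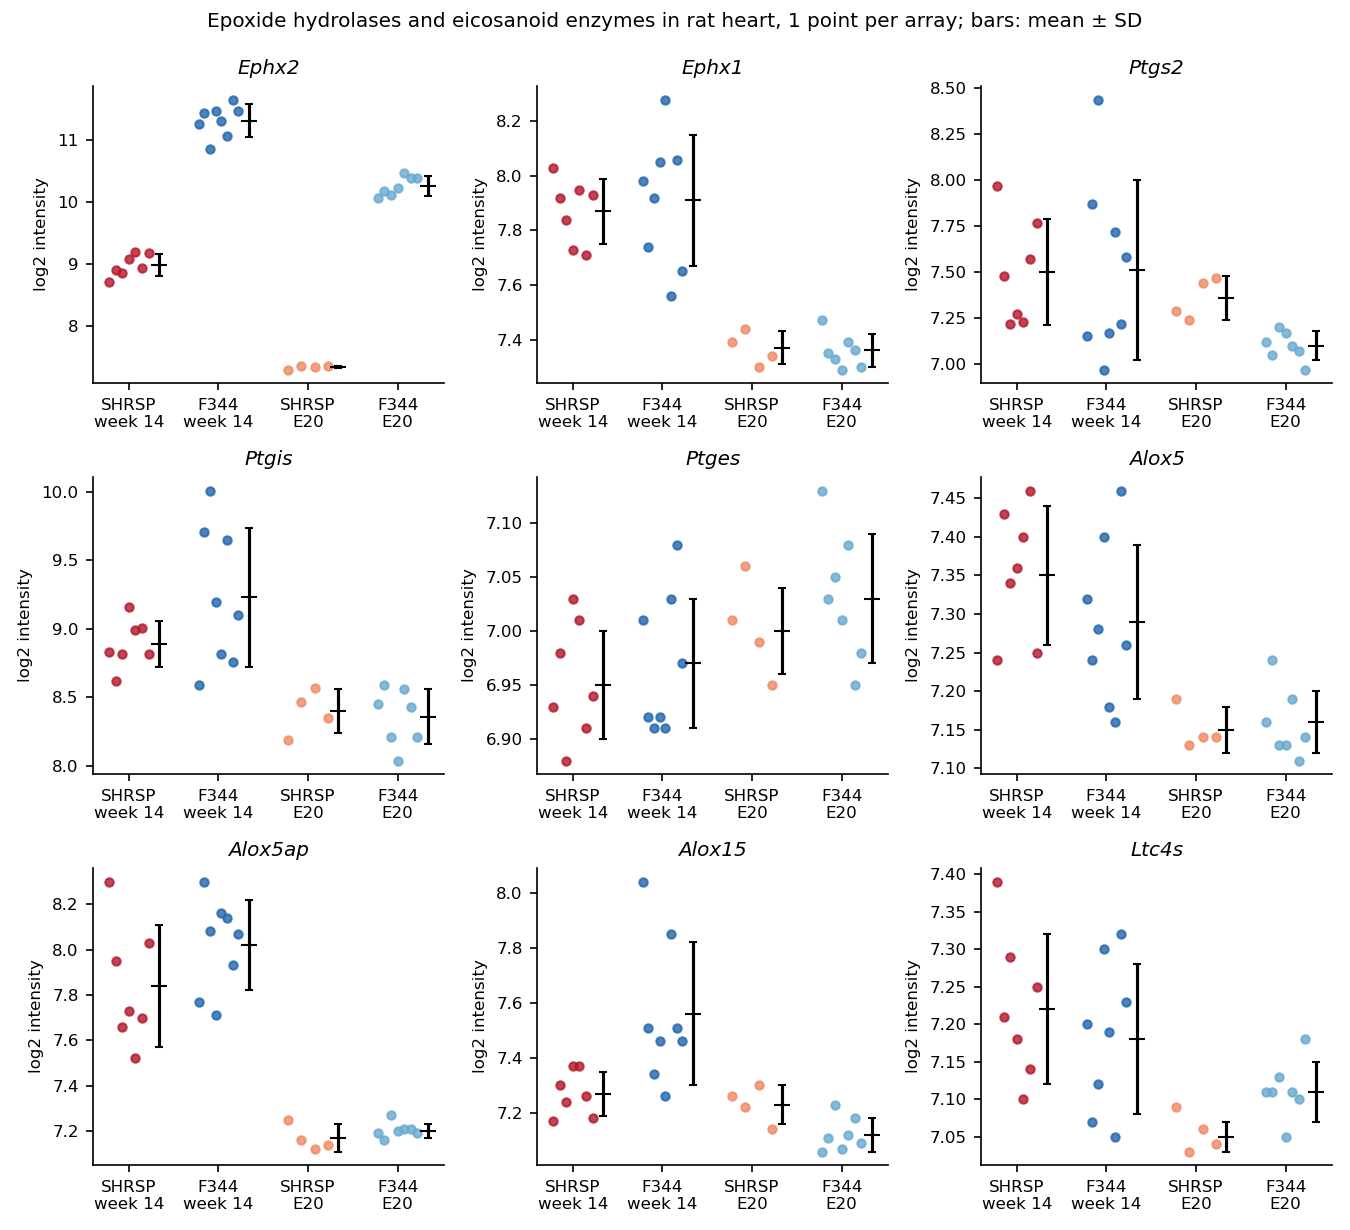
Log2 intensity (y axis, a separate range in each panel) of the 9 measured genes, with 1 point per array in 7 SHRSP and 8 F344 hearts at week 14 and in 4 SHRSP and 7 F344 hearts at E20, and bars for the mean ± SD. Ephx2 fills 4 separate bands from 7.30 to 11.65, Ephx1 and Alox5ap sit higher at week 14 than at E20 in both strains, and Ptges stays between 6.88 and 7.13.

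Ephx1 encodes microsomal epoxide hydrolase, which opens epoxides of foreign compounds and also some fatty acid epoxides. It read 7.71, 7.92 and 8.03 (lowest, median, highest) in SHRSP at week 14 and 7.56, 7.95 and 8.28 in F344 at week 14. At E20 it read 7.39, 7.44, 7.30 and 7.34 in SHRSP and 7.29, 7.35 and 7.47 in F344. Every week 14 array of a strain lay above every E20 array of that strain, and the strains overlapped at both stages. The week 14 level was 1.42-fold higher in SHRSP (log2 fold change 0.51, SE 0.09, adjusted p = 6.63e-05 from limma) and 1.46-fold higher in F344 (0.55, SE 0.08, adjusted p = 1.13e-06). The strain difference was -0.03 at week 14 (95% interval -0.19 to 0.13, adjusted p = 0.9) and 0.01 at E20 (interval -0.18 to 0.20, adjusted p = 0.993).

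Of the prostanoid enzymes, Ptgis and Ptgs2 were called higher at week 14 in F344 and none was called in SHRSP, and no difference between the strains, at either stage or in the stage change, passed the test over all arrays. Ptgis, which encodes prostacyclin synthase, read 8.62, 8.83 and 9.16 in SHRSP at week 14 against 8.59, 9.15 and 10.01 in F344 at week 14. It read 8.19, 8.47, 8.57 and 8.35 in SHRSP at E20 against 8.04, 8.43 and 8.59 in F344 at E20. In each strain the 2 stages did not overlap, although in F344 the lowest week 14 array equalled the highest E20 array to 2 decimals. The difference of week 14 from E20 was 0.88 in F344 (SE 0.16, 1.83-fold, adjusted p = 5.7e-05). In SHRSP it was 0.49 (SE 0.19, 1.41-fold) with an adjusted p of 0.0509 from limma, which just missed the threshold of 0.05, and it passed when only the SHRSP arrays were fitted (adjusted p = 0.000947) and when F344 week 14 replicate 3 was left out (adjusted p = 0.0212). It also passed with array weights (adjusted p = 0.0147), cyclic loess (0.0369) and the filter on dim probes (0.0311). With the leading residual component of the arrays as a covariate, chosen after seeing the data, the adjusted p was 0.0013. That covariate leaves the difference as it was and only takes spread from genes that follow it, so this value is no support. The stage difference itself was not shown to differ between the strains (interaction -0.38, 95% interval -0.90 to 0.13, adjusted p = 0.626).

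At week 14 the mean of Ptgis was 8.89 ± 0.17 in SHRSP (SD, n = 7) and 9.23 ± 0.51 in F344 (SD, n = 8). The spread in F344 was wide, with 3 arrays at 9.65, 9.71 and 10.01 and the other 5 between 8.59 and 9.20. The strain difference of -0.34 (95% interval -0.67 to -0.01) did not pass after adjustment over all probes (adjusted p = 0.245).

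Ptgs2, the inducible cyclooxygenase, read 7.22, 7.48 and 7.97 in SHRSP at week 14 and 6.97, 7.40 and 8.44 in F344 at week 14. At E20 it read 7.29, 7.24, 7.44 and 7.47 in SHRSP and 6.97, 7.10 and 7.20 in F344. The adult groups overlapped almost entirely, while the lowest fetal SHRSP array lay above the highest fetal F344 array. Week 14 exceeded E20 in F344 by 0.42 (SE 0.16, 1.34-fold, adjusted p = 0.0361), but the 2 stages overlapped, and without F344 week 14 replicate 3 the difference was 0.29 with an adjusted p of 0.0736. This call was also lost when only the F344 arrays were fitted (adjusted p = 0.0693), with limma-trend (adjusted p = 0.0507) and without any one of replicates 2, 6 and 8 of F344 at week 14 or 2, 5, 6 and 7 of F344 at E20 (adjusted p up to 0.0766). In SHRSP the difference was 0.14 (95% interval -0.24 to 0.53, adjusted p = 0.642), and the stage difference was not shown to differ between the strains (interaction -0.27, 95% interval -0.78 to 0.23, adjusted p = 0.765).

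At E20 the strain difference of Ptgs2 was 0.26 (SE 0.19, 1.20-fold). It had an adjusted p of 0.74 with the spread shared over all 26 arrays and of 0.0134 with only the E20 arrays in the fit. The SD of Ptgs2 was 0.29 in SHRSP and 0.49 in F344 at week 14, against 0.12 in SHRSP and 0.08 in F344 at E20, so a shared spread is wide for the fetal groups. Of all probes, 2.26% did not overlap between the strains at E20 in the direction higher in SHRSP, and Ptgs2 was 1 such gene among the 8.

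Ptges, the inducible microsomal prostaglandin E synthase, read 6.88 to 7.03 in SHRSP and 6.91 to 7.08 in F344 at week 14, and 6.95 to 7.06 in SHRSP and 6.95 to 7.13 in F344 at E20. All 26 values lay below the array median of 7.16, and no comparison passed the test over all arrays. Without F344 week 14 replicate 7 the stage difference in F344 was -0.08 with an adjusted p of 0.0388. At the background of the array no difference was detectable with all arrays, and nothing can be said about absence of the RNA.

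The lipoxygenase and leukotriene genes read close to the array median at E20, and those that differed by stage were higher at week 14. Alox5ap, the membrane protein that presents arachidonic acid to 5-lipoxygenase, had the largest stage difference of these 4 genes. It read 7.52, 7.73 and 8.30 in SHRSP and 7.71, 8.07 and 8.30 in F344 at week 14, against 7.25, 7.16, 7.12 and 7.14 in SHRSP and 7.16, 7.20 and 7.27 in F344 at E20. No week 14 array of either strain overlapped any E20 array. The difference was 0.67 in SHRSP (SE 0.11, 1.59-fold, adjusted p = 1.15e-05) and 0.81 in F344 (SE 0.09, 1.76-fold, adjusted p = 2.08e-08). At week 14 the strain difference was -0.18 (95% interval -0.36 to 0.00, adjusted p = 0.286), and without SHRSP week 14 replicate 1 it was -0.26 with an adjusted p of 0.037.

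Alox5 encodes 5-lipoxygenase, the first enzyme of leukotriene synthesis. It read 7.24, 7.36 and 7.46 in SHRSP and 7.16, 7.27 and 7.46 in F344 at week 14, against 7.19, 7.13, 7.14 and 7.14 in SHRSP and 7.11, 7.14 and 7.24 in F344 at E20. The stages did not overlap in SHRSP and overlapped in F344. The gain at week 14 was 0.20 in SHRSP (SE 0.05, adjusted p = 0.00137) and 0.13 in F344 (SE 0.04, adjusted p = 0.0121), both small differences between values near background.

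Ltc4s, leukotriene C4 synthase, which joins leukotriene A4 to glutathione, read 7.10, 7.21 and 7.39 in SHRSP and 7.05, 7.20 and 7.32 in F344 at week 14. At E20 it read 7.09, 7.03, 7.06 and 7.04 in SHRSP and 7.05, 7.11 and 7.18 in F344. In SHRSP the nearest arrays of the stages were only just apart, and in F344 the stages overlapped. The difference was 0.17 in SHRSP (SE 0.05, adjusted p = 0.00807) and 0.07 in F344 (SE 0.04, adjusted p = 0.193), and the 2 were not shown to differ (interaction 0.10, adjusted p = 0.622).

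Alox15, which encodes a lipoxygenase that oxygenates arachidonic acid at other carbons than Alox5 does, was the only one of the 8 genes past the test between strains. It read 7.17, 7.26 and 7.37 in SHRSP at week 14 against 7.26, 7.49 and 8.04 in F344 at week 14. It read 7.26, 7.22, 7.30 and 7.14 in SHRSP at E20 against 7.06, 7.11 and 7.23 in F344 at E20. The adult F344 group read highest, led by replicate 1 at 8.04 and replicate 6 at 7.85, and the strains overlapped at both stages.

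Alox15 was lower in SHRSP at week 14 by 0.29 (log2 fold change -0.29, SE 0.08, 1.22-fold, adjusted p = 0.017). It stayed past the threshold without any single array (adjusted p of 0.00417 to 0.0423), but not when only the week 14 arrays were fitted (adjusted p = 0.089). Among all probes 8.95% were called in this comparison, and 4.46% as lower in SHRSP, so 1 of 8 is not far from that background. Week 14 exceeded E20 by 0.43 in F344 (SE 0.08, 1.35-fold, adjusted p = 5.27e-05), and in SHRSP the difference was 0.04 (95% interval -0.16 to 0.23, adjusted p = 0.819). The difference between these 2 values was -0.39 (95% interval -0.65 to -0.14) with an adjusted p of 0.094, so it was not called, and without F344 week 14 replicate 5 it was -0.44 with an adjusted p of 0.0365.

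Over the 8 tested genes, 4 were higher at week 14 in SHRSP (Ephx1, Alox5, Alox5ap and Ltc4s) and 6 in F344 (Ephx1, Ptgs2, Ptgis, Alox5, Alox5ap and Alox15), and none was lower in either strain. Of all probes, 15.7% were called higher at week 14 in SHRSP and 17.2% in F344, and 32.7% and 35.7% were called in either direction. The median difference over the 8 genes was 0.19 in SHRSP and 0.43 in F344, against 0.00 over all probes in both. All week 14 arrays lay above all E20 arrays for 5 of the 8 genes in SHRSP and for 4 of the 8 in F344, where 12.2% and 8.59% of all probes did so. At E20 no gene of the 8 passed between the strains in limma, 0 also at an unadjusted p under 0.05, while 3.21% of all probes were called. No gene of the 8 passed the interaction of strain and stage in limma, for which 2.96% of all probes were called, and 1 gene had an unadjusted p under 0.05. No gene of the 8 was past the study's limit of 1.5 log2 in any of the 5 comparisons, a limit that, with the adjusted p, 0.200% of all probes passed between the strains at week 14, 0.124% at E20, 2.10% between the stages in SHRSP, 1.97% in F344 and 0.0666% in the interaction. The 2 stage comparisons take their means from different arrays, whereas each strain comparison shares its arrays with a stage comparison. All comparisons share 1 estimate of the spread over the 26 arrays, so the 2 stage comparisons are not fully separate evidence.

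**Figure D2:**
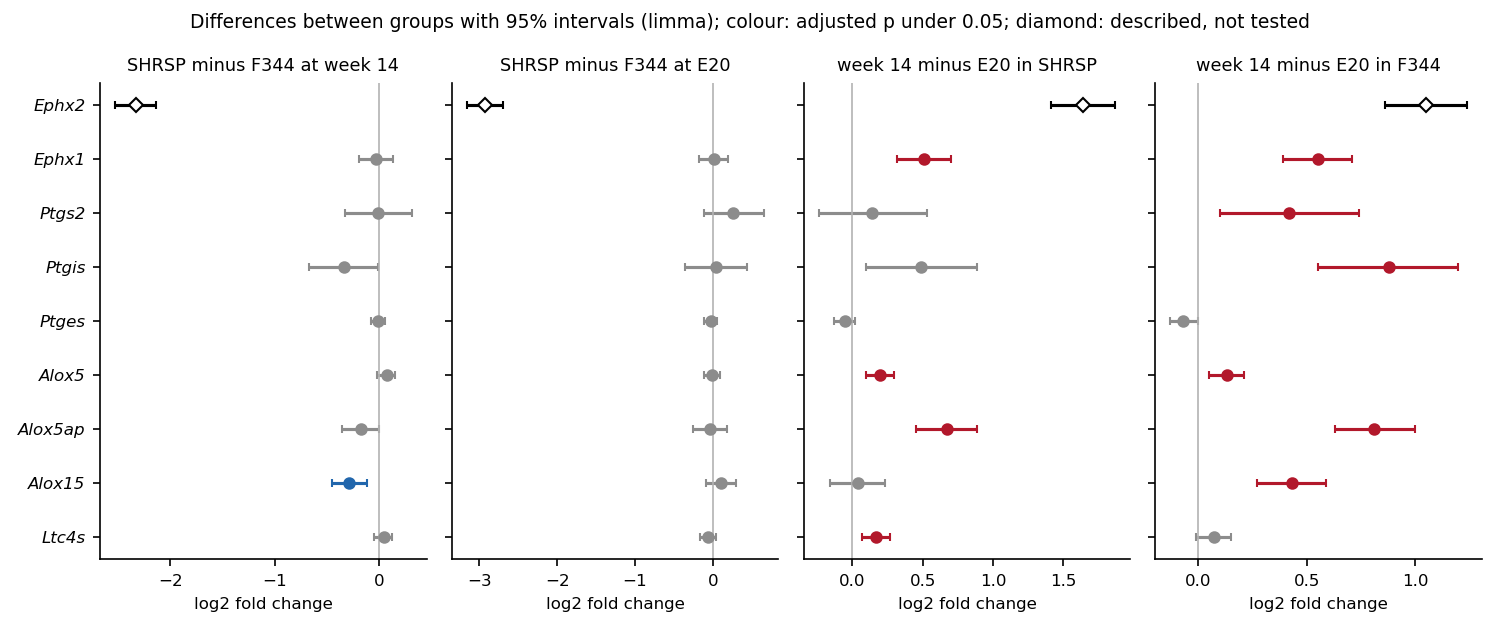
Differences of log2 intensity (x axis, a separate range in each panel) for SHRSP minus F344 at week 14 and at E20 and for week 14 minus E20 in SHRSP and in F344, with 95% intervals from limma. Coloured points passed an adjusted p under 0.05 (red higher, blue lower), grey points did not, and the open diamond is Ephx2, which was not tested. Of the 8 tested genes, 4 were higher at week 14 in SHRSP and 6 in F344, and Alox15 at week 14 was the only strain difference that passed.

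Macrophage markers moved with stage. All 8 measured genes of that list (Cd163, Mrc1, Adgre1, C1qa, C1qb, C1qc, Fcer1g and Cd14) were higher at week 14 in both strains, where 15.7% of all probes were in SHRSP and 17.2% in F344. Their summed intensity, on the unlogged scale, was 4256 to 7240 in SHRSP and 5219 to 8911 in F344 at week 14, against 1830 to 2073 in SHRSP and 1668 to 2147 in F344 at E20. None of the 8 averaged below the array median at week 14, and 2 of the 8 did in each strain at E20. These leukocyte genes therefore moved in the same direction as Alox5, Alox5ap and Ltc4s in SHRSP and as Alox5, Alox5ap and Alox15 in F344, and their part in those results was not tested. At week 14, 2 of the 8 macrophage markers were lower in SHRSP than in F344 and none was higher, where 4.46% and 4.49% of all probes were. Mast cell markers went the other way, with 3 of 11 higher in SHRSP and none lower at that stage. At E20, 2 of these 11 were higher in SHRSP and none lower, where 1.55% of all probes were higher. The array with the highest Alox5ap value in each adult group, 8.30 in both, was also the array with the highest macrophage sum, 7240 in SHRSP and 8911 in F344. The next highest Alox5ap value in F344, 8.16 in replicate 5, came with a sum of 7657. For Alox15, F344 replicate 1 had the highest value of its group, 8.04, and the lowest macrophage sum, 5219. Replicate 6 had the next highest Alox15 value, 7.85, with a sum of 8126. SHRSP replicate 1 had the lowest Alox15 value of its group, 7.17, and the highest sum. These are single arrays, and a link between the sums and either gene was not tested.

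Markers of other cell types differed by stage to unlike degrees. Of all probes, 15.7% were called higher and 17.0% lower at week 14 in SHRSP, and 17.2% higher and 18.6% lower in F344. Of 7 fibroblast markers 3 were higher and 4 lower at week 14 in each strain, with medians of -1.17 in SHRSP and -0.89 in F344. Their summed intensity was 19005 to 26241 in SHRSP and 17342 to 26579 in F344 at week 14, against 27439 to 29049 in SHRSP and 25015 to 38137 in F344 at E20. Of 7 cardiomyocyte markers 4 were higher and none lower in each strain, and of 4 smooth muscle markers 1 was higher and 1 lower in SHRSP and 1 higher and 2 lower in F344. Among blood-derived cells, of 9 neutrophil markers none was higher at week 14 and 1 was lower in each strain, and of 5 platelet markers none was higher, while 2 were lower in SHRSP. Of 11 mast cell markers 3 were higher and 2 lower at week 14 in SHRSP, and 4 were higher and 1 lower in F344. Of 6 endothelial markers 3 were higher in SHRSP and 3 were higher and 1 lower in F344. Red blood cell precursor markers ran the other way, with 4 of 6 lower at week 14 in SHRSP and 5 of 6 in F344. The part of these shifts in the member genes was not tested.

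Arrays of the same group also differed from each other, and this spread was summarized over all 26 arrays, fetal ones among them. The leading component of the residuals held 21.1% of the variance that the 4 group means left. The named probes that rose most with its score were those of Reg3b, Timp1, Trh, Hamp, Lcn2, Myot, Hmox1 and Mt1. Probes that fell with the score and probes without a gene name are not listed here. F344 week 14 replicate 3 had the highest score, 20.6, and replicate 1 of the same group the lowest, -15.77. The 4 F344 arrays with the highest scores (replicates 3, 2, 6 and 8) had the 4 highest Ptgs2 values of their group, 8.44, 7.87, 7.72 and 7.58, and the other 4 read 6.97 to 7.22. Replicates 3, 2 and 6 also had the 3 highest Ptgis values, 10.01, 9.71 and 9.65.

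In SHRSP at week 14, replicates 1, 7 and 6 had the highest scores and the 3 highest Ptgs2 values, 7.97, 7.77 and 7.57, whereas their Ptgis values of 8.83, 8.82 and 9.01 lay inside the range of the group. Ephx2 was lowest in the top-scoring array of each adult group, at 8.71 in SHRSP and 10.85 in F344. The component was built from all probes, these genes among them, so the match is a description. With the component as a covariate, an alternative chosen after seeing the data, Ptgis was lower in SHRSP at week 14 by 0.34 at an adjusted p of 0.0201, and the Ptgs2 difference of 0.42 between stages in F344 had an adjusted p of 0.000116. The component is made of deviations from the group means. As a covariate it leaves every difference as it was and takes spread from the genes that follow it. The lower adjusted p of these genes follows from that and is no support.

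**Figure D3:**
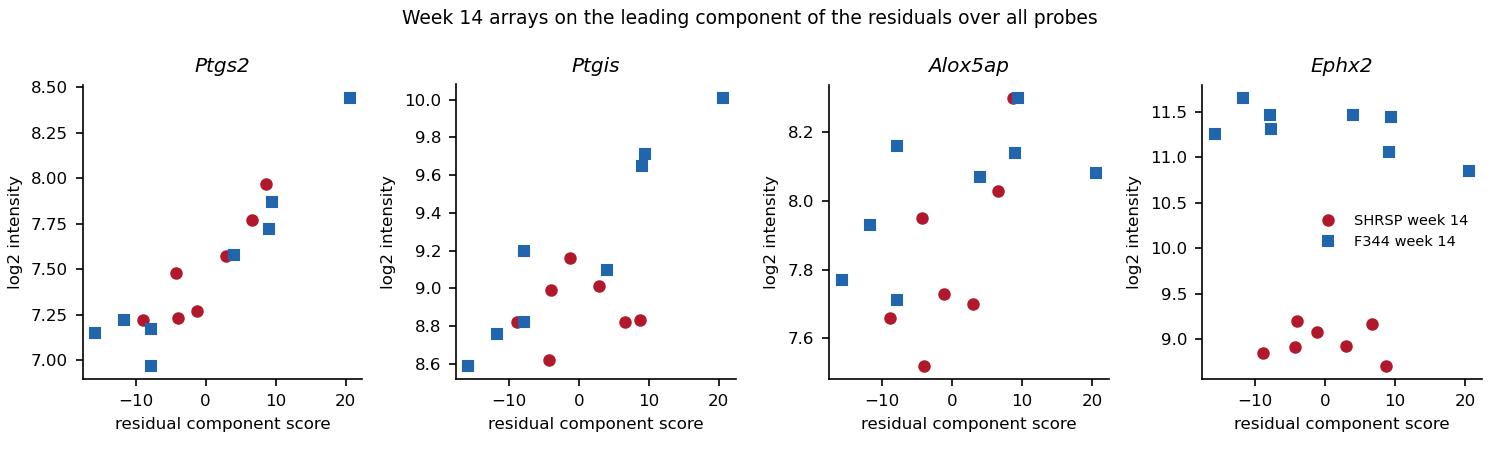
Log2 intensity of Ptgs2, Ptgis, Alox5ap and Ephx2 (y axis) against the score of each week 14 array on the leading residual component (x axis, no unit), for SHRSP (circles, n = 7) and F344 (squares, n = 8). Ptgs2 climbs with the score in both strains up to 8.44, Ptgis climbs in F344 up to 10.01, and Ephx2 stays in separate strain bands.

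The genes whose values ran closest to Ephx2 over the 26 arrays were Serpinb6a (Pearson r 0.96), Lgmn (0.95), Tmem65 (0.95), Bnip3 (0.94) and Yipf7 (0.93). All 5 were lower on average in SHRSP than in F344 at both stages, and Bnip3, for instance, averaged 11.03 in SHRSP and 13.45 in F344 at week 14, and 10.35 in SHRSP and 12.63 in F344 at E20. After the 4 group means were taken away, the closest were Impa2 (0.86), Ermp1 (0.82), Slc22a3 (0.82), Tubgcp5 (0.79) and Rpia (0.79). These correlations were picked as the highest over all named probes, share the arrays and their normalization, and carry no test.

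The wider pathway was followed in 74 further genes, of which 64 had a named probe, from the phospholipases to the receptors. Between the stages, 22 of the 64 were higher and 6 lower at week 14 in SHRSP, and 25 were higher and 5 lower in F344. Of all probes, 15.7% were higher and 17.0% lower in SHRSP, and 17.2% were higher and 18.6% lower in F344. The medians over the 64 were 0.06 in both strains, close to the 0.00 of all probes. Release of arachidonic acid was the group with the largest share of genes higher, 6 of 8 in SHRSP and 5 of 8 in F344, with medians of 0.89 and 0.81.

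Pla2g2a, a secreted phospholipase A2 that is raised in inflammation, had the largest stage difference of the 64 genes. It averaged 11.27 ± 0.37 in SHRSP (SD, n = 7) and 11.67 ± 0.78 in F344 (SD, n = 8) at week 14, against 7.90 ± 0.38 in SHRSP (SD, n = 4) and 7.66 ± 0.28 in F344 (SD, n = 7) at E20. The gain was 3.38 in SHRSP (SE 0.31, 10.4-fold, adjusted p = 8.65e-10) and 4.01 in F344 (SE 0.25, 16.1-fold, adjusted p = 5.17e-13). Pla2g4a, the cytosolic phospholipase A2 that prefers arachidonic acid, was higher by 1.76 in SHRSP and 1.56 in F344, and Pla2g12a, another secreted form, by 1.34 and 1.51, all past the test and with no overlap between stages. None of these 3 passed the test between the strains at either stage.

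Downstream enzymes moved in both directions. Prxl2b, a prostamide and prostaglandin F synthase, was higher at week 14 by 1.55 in SHRSP and 2.04 in F344 (adjusted p = 3.46e-12 and 1.66e-16). Lta4h, which turns leukotriene A4 into leukotriene B4, averaged 9.90 ± 0.10 in SHRSP and 9.91 ± 0.18 in F344 at week 14 against 11.22 ± 0.12 in SHRSP and 11.24 ± 0.09 in F344 at E20, and fell by 1.31 in SHRSP and 1.33 in F344. Ptgr1, a reductase that inactivates leukotriene B4 and prostaglandins, fell by 1.08 in SHRSP and 1.20 in F344, Cbr1, a carbonyl reductase that acts on prostaglandin E, fell by 0.75 and 0.72, and Hpgd, the main prostaglandin dehydrogenase, fell by 0.32 and 0.51. Hpgd read near the background at week 14, with means of 7.18 in SHRSP and 7.09 in F344. The group of 13 eicosanoid receptors had 1 gene higher and 1 lower in SHRSP and 1 higher in F344.

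**Figure D4:**
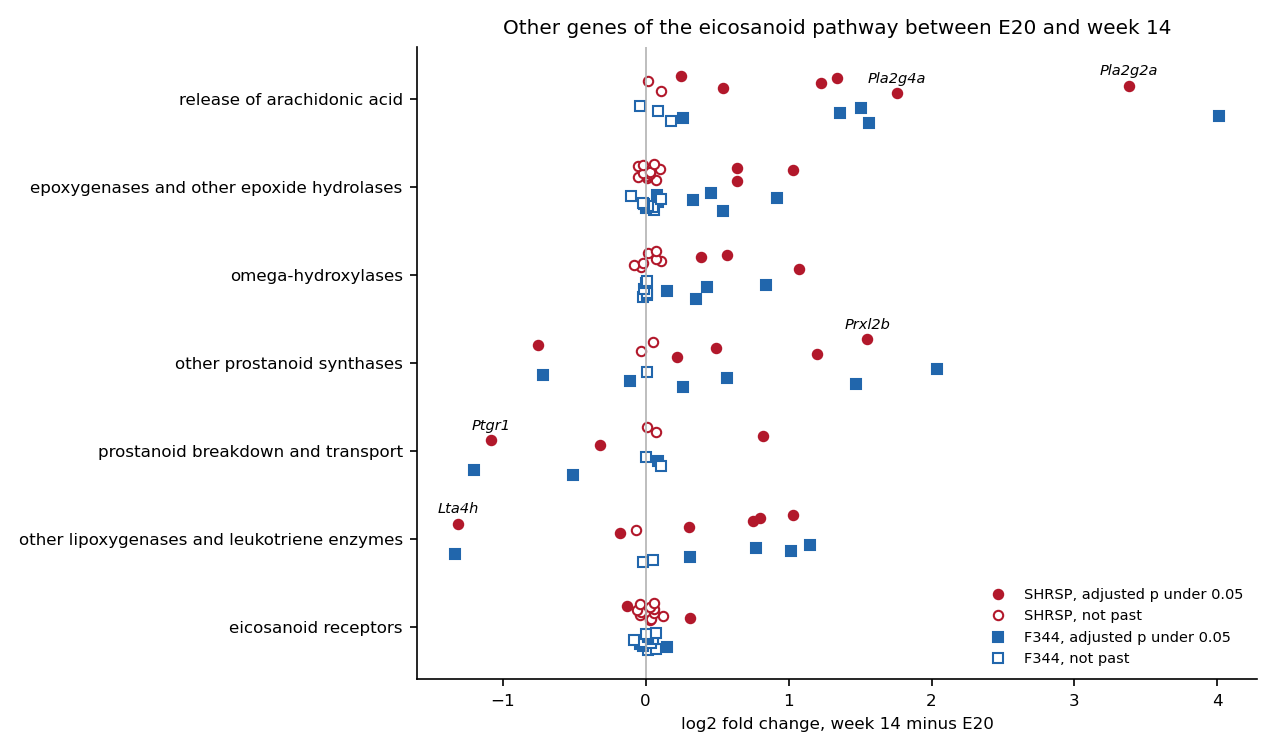
Difference of log2 intensity between week 14 and E20 (x axis, positive where week 14 is higher) for the 64 further genes, 1 point per gene and strain in 7 groups by role (y axis), with circles for SHRSP and squares for F344. Filled points passed an adjusted p under 0.05 in limma, and the spread runs from -1.33 for Lta4h to 4.01 for Pla2g2a, both in F344.

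Between the strains, 6 of the 64 genes were higher and 3 lower in SHRSP at week 14, and 4 were higher and 1 lower at E20. Among all probes 4.49% were higher and 4.46% lower in SHRSP at week 14, and 1.55% were higher and 1.66% lower at E20. The 5 genes called at E20 became 3 without SHRSP E20 replicate 3. Ptgr2, which reduces keto-prostaglandins and which stands in a table that the study chose on these samples, averaged 9.19 ± 0.13 in SHRSP and 7.58 ± 0.08 in F344 at week 14, and 8.36 ± 0.10 in SHRSP and 7.47 ± 0.07 in F344 at E20. It was higher in SHRSP by 1.60 at week 14 and by 0.89 at E20 (adjusted p = 1.45e-18 and 5.69e-11), and was the only one of the 64 past the limit of 1.5 log2 between the strains. Because of that choice its week 14 value is no independent evidence, nor is its interaction of strain and stage, which contains that value. Ptgr1 was higher in SHRSP at both stages, by 0.52 and 0.40 (adjusted p = 2.21e-07 and 0.000689), and Cbr1 was lower in SHRSP at both, by 0.63 and 0.59 (log2 fold changes -0.63 and -0.59, adjusted p = 0.000193 and 0.00822).

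On the P450 side, Cyp4a1, an omega-hydroxylase of fatty acids, averaged 9.28 ± 0.10 in SHRSP and 8.29 ± 0.11 in F344 at week 14, and 8.21 ± 0.03 in SHRSP and 7.93 ± 0.06 in F344 at E20. The strain difference was 0.99 at week 14 and 0.27 at E20 (adjusted p = 2.33e-15 and 0.00186). Cyp2c24, of the Cyp2c family that holds the rat epoxygenases, was higher in SHRSP by 0.87 at week 14 (8.64 to 9.26 in SHRSP and 7.82 to 8.14 in F344, adjusted p = 3.08e-10), and its difference of 0.17 at E20 did not pass (adjusted p = 0.478). Both belong to families of closely related genes, which 1 probe may not tell apart. Cyp4a1 also had a second, dimmer probe, whose values are not given here. Ephx4, a further gene of the epoxide hydrolase family, was lower in SHRSP at week 14 by 0.39 (7.14 ± 0.10 in SHRSP and 7.53 ± 0.16 in F344, log2 fold change -0.39, adjusted p = 1e-05), without overlap, and Prxl2b by 0.39 as well (adjusted p = 0.0029). At E20 Ephx4 read 7.07 ± 0.04 in SHRSP and 7.06 ± 0.07 in F344, a difference of 0.01. Its mean lay above the array median of 7.16 only in F344 at week 14, so its differences are between values near the background. Alox12, the platelet lipoxygenase, was higher in SHRSP at E20 by 0.19 (adjusted p = 0.00995), a small difference near the background. At that stage 1 of 5 platelet markers was also higher in SHRSP, where 1.55% of all probes were. A link between that marker and Alox12 was not tested.

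The difference of week 14 from E20 was unlike between the strains for 4 of the 64 genes by the interaction test. For 3 of them the gain was larger in SHRSP and for 1 in F344. Stage, tissue, kit and manner of killing cannot be told apart in this test either. Of all probes, 2.96% were called in this test. Without F344 week 14 replicate 3 the count was 7, and the share of all probes in that fit is not given here. Cyp4a1 was higher at week 14 by 1.07 in SHRSP and 0.35 in F344, Cyp2c24 by 1.03 and 0.33, and Ptgr2 by 0.82 and 0.11, although the F344 value of Ptgr2 did not pass (adjusted p = 0.0869). Ptgr2 is counted among the 4, but its interaction contains the week 14 strain difference on which the study chose it. Ephx4 was higher by 0.46 in F344, and its value of 0.06 in SHRSP did not pass (adjusted p = 0.552). Ephx2 stands beside these as a described gene, with a difference of 0.59 between its 2 stage values.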

How the data were processed

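The authors read the BeadChips in GenomeStudio, checked them in lumi and dropped arrays that correlated poorly with their group. They deposited log2 values after quantile normalization, for 22523 probes on 26 arrays, and these were used as they stand. The sources used here name no step of background correction. A second table of raw intensities has 52 columns whose names match no sample label. It was not used, so probes were not filtered on detection.

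The annotation table gives 1 gene name to 13793 probes and none to 8730, and 13752 names were brought up to date by gene ID. The brightest probe stood for a gene. Each of the 4 groups had its own mean in limma 3.58.1 (R 4.3.3) over all 26 arrays, with the adjustment of Benjamini & Hochberg across every probe. A gene was called at an adjusted p under 0.05, and the limit of 1.5 on the log2 fold change used in the study is also given. The interaction is the stage difference in SHRSP minus that in F344. The fit was tested on simulated data. Precision is limited by the number of arrays, and by the 4 SHRSP hearts at E20 in particular. The p-values measure the spread between these samples.

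Members and lists were chosen with earlier results of these data known. Named genes are all members, up to 4 genes higher and 4 lower per comparison from the wider lists (largest fold changes past the test), and the 5 most like Ephx2 by each measure. The fits were repeated on the compared groups alone, with a replicate block, limma-trend, array weights, median centring, cyclic loess, a dim-probe filter, averaged probes and each array left out. A fit with the leading residual component was added after seeing the data. Promoters came from RefSeq (GRCr8). Python 3.11.15 with pandas 2.3.3 and NumPy 2.4.6 built the tables, and Matplotlib 3.10.9 drew the plots.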

Additional observations from a re-analysis of the deposited data

Results flagged for a closer look

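Single arrays stood apart from their group, by the gap to the nearest array over the range of the group, in 4 of 88 groups tested over 22 genes, and chance gives about 1 in 20, or 4.4. Ephx4 in F344 E20 replicate 5 read 7.22, with the next array at 7.07. Lta4h in F344 week 14 replicate 3 was the lowest of its group at 9.51, with the next at 9.84, and this is the array with the lowest weight. Pla2g2a in F344 E20 replicate 3 read 8.26, with the next at 7.65. Prxl2b in SHRSP week 14 replicate 5 read 9.86, with the next at 9.62.

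By the interaction test of limma, the stage difference was larger in SHRSP than in F344 by 0.70 for Cyp2c24 (adjusted p = 0.000113). It was larger by 0.72 for Cyp4a1 (adjusted p = 7.53e-08) and by 0.71 for Ptgr2 (adjusted p = 5.95e-07). The study chose Ptgr2 on its adult strain difference in these samples. Its interaction contains that difference, so the Ptgr2 value is no independent evidence. For Ephx4 the stage difference was smaller in SHRSP, with an interaction of -0.40 (adjusted p = 0.00562) between values near the background.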

How the results depend on the processing

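Counts and differences of the 8 tested member genes were recomputed under 35 alternatives. Single differences kept their direction and their side of the threshold in 1337 refits, lost a call in 12, gained one in 18 and turned direction in 20, all 20 on differences that were not called. The number of members called at week 14 between the strains was 0 with only the groups compared (Alox15 lost), and 2 with the residual component as a covariate (Ptgis gained). At E20 it was 1 with only the groups compared (Ptgs2), and for the interaction 1 with array weights (Alox15). Of the wider pathway, 8 genes passed the interaction with the residual component as a covariate, against 4 without it, where 2.96% of all probes were called. That covariate leaves the differences as they were and only takes spread from genes that follow it. The cause of the other shifts was not tested.

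With each array left out in turn, the members called between the strains at week 14 numbered 1 to 2 (Alox5ap gained without SHRSP week 14 replicate 1), and for the interaction 0 to 1 (Alox15 gained without F344 week 14 replicate 5). The wider pathway genes called numbered 3 to 6 at E20 and 4 to 7 for the interaction. Ptgis between stages in SHRSP was gained without any one of SHRSP week 14 replicate 2 and F344 week 14 replicates 1, 2, 3, 5, 6 and 7. Differences near 0 turned sign. With array weights Ptgs2 at week 14 was 0.015, Alox5 at E20 0.001 and the Ptges interaction -0.003. Without single arrays, at week 14 between the strains Ptgs2 ran from -0.089 to 0.121, Ephx1 from -0.081 to 0.022 and Ptges from -0.028 to 0.001. At E20 Ephx1 ran from -0.014 to 0.034, Ptgis from -0.017 to 0.111 and Alox5 from -0.023 to 0.005, and for the interaction Ephx1 ran from -0.092 to 0.011 and Ptges from -0.004 to 0.031.

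The labels number replicates from 1 in every group, but the animals differ. Deviations of same-numbered arrays correlated from -0.241 to 0.44 over all pairs, and no pair of groups had all its correlations over 0.1. Arrays of unlike number were not set beside these, so whether a number stands for a shared chip or run was not tested. The samples were treated as unpaired. With the number as a replicate block the Ptgs2 stage difference in F344 was 0.409 (adjusted p = 0.0713, limma), and no other member changed its call. The signal over background limits Ptges, Ltc4s and Alox5 most, with 26, 15 and 8 of 26 arrays below the array median.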
